A study of Mus musculus with 12 samples.

Results

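The genes described here encode kinesins, cytoplasmic dynein and dynactin, the motors that move cargo along microtubules. They were chosen by name in the deposited tables (symbols of the Kif, Klc1 to Klc4, Dync1, Dync2, Dynl and Dctn1 to Dctn6 series) with a mean of at least 0.1 TPM (a level corrected for transcript length and library total) over the 12 mice. Among 38924 genes, 63 names matched and 61 passed, namely 3 kinesin-1 heavy chains, 4 kinesin light chains, 4 kinesin-2, 6 kinesin-3, 4 kinesin-4, 11 kinesins of dividing cells, 7 ciliary and other kinesins, 5 dynein-1 chains, 9 dynein light chains, 2 dynein-2 chains and 6 dynactin subunits. The names just outside were Kif12, at 0.00917 TPM, and Kif2b, at 0. The members just inside were Kif14, at 0.138 TPM, and Kif18b, at 0.336.

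Whole spinal cords of mice aged 8 weeks were sequenced. The 6 wild-type mice (WT, labelled ETAQ+/+) carried the normal Gars gene on both chromosomes. The 6 ETAQ mice (labelled ETAQ+/-) were heterozygous for the delETAQ allele of Gars, the gene for glycyl-tRNA synthetase, and dominant variants of the human gene underlie Charcot-Marie-Tooth neuropathy of the axonal kind. Each genotype held 3 females and 3 males, all on a mixed B6J;FVB background and without other alleles or treatments in the labels. Mice are named by the numbers 1 to 12 in their titles.

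Most protein of an axon is made in the cell body. Vesicles, mitochondria, neurofilaments and RNA granules travel along microtubules from the cell body and back. Most kinesins walk towards the microtubule plus end, outward in an axon, while cytoplasmic dynein, helped by dynactin, carries cargo back to the cell body. The longest axons of the body belong to motor and sensory neurons, and mutations in several of these genes (KIF5A, KIF1A, DYNC1H1, DCTN1) cause inherited diseases of human motor neurons, long spinal tracts or peripheral nerves. Other kinesins build the mitotic spindle and are used mainly by cells that divide.

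Library totals ran from 23595929 to 41452662 expected counts, and the 61 genes together took 1.22% to 1.34% of each. Gars, read first, was at 119.7 to 133 normalised CPM (counts scaled to a common library size with TMM factors) in WT and at 136 to 151 in ETAQ, without overlap, though gene counts cannot separate the deleted allele from the normal one. Markers of neurons, motor neurons and glia were found in every library. Libraries of mice 1 to 6 also held more RNA of blood and marrow (summed markers 1816 to 3279 CPM against 134 to 253 in mice 7 to 12), skeletal muscle (26.2 to 337 against 0.509 to 1.196) and Schwann cells (321 to 749 against 75.5 to 98.9). Each of these sets of mice held 3 mice of each genotype, while mice 1 to 6 held 5 males and mice 7 to 12 held 5 females. In bulk tissue, fewer cells of a type and less RNA per cell cannot be told apart.

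Levels between genes were compared in TPM. The dynein light chain gene Dynll2 was highest, at 744 ± 52.7 TPM in WT and 723 ± 39.3 in ETAQ (SD, n = 6 each). It was followed by Klc1, a light chain that links kinesin-1 to cargo, at 443 TPM over all mice, Kif5a, a neuronal kinesin-1 heavy chain, at 428, Kif1a, the kinesin-3 of synaptic vesicle precursors, at 369.8, and the dynein light chain gene Dynlrb1 at 369. The levels of Klc1 (403 to 487 TPM over mice) and Kif5a (397.99 to 461) overlapped, and so did those of Kif1a (331 to 397.9) and Dynlrb1 (348 to 389), so the order within each of these pairs lies within the spread. The ranges of Kif5a and Kif1a did not overlap, though they nearly met. In all, 18 genes were at 100 TPM or more, 20 between 10 and 100, 12 between 1 and 10 and 11 under 1. The 18 highest included all 3 kinesin-1 heavy chains, 3 dynein-1 chains and 4 dynactin subunits.

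**Figure D1:**
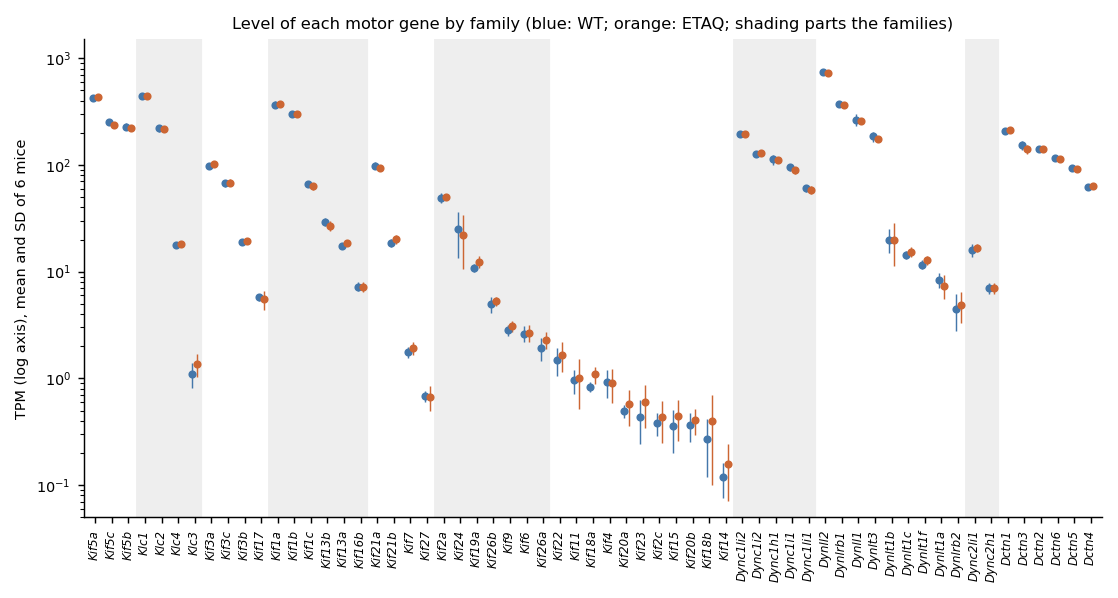
Mean TPM (log axis) of each of the 61 genes in WT (blue) and ETAQ (orange), grouped by family, with bars for the SD of 6 mice. Kinesin-1 heavy chains and most dynactin subunits lie above 100 TPM, the dividing-cell kinesins lie near or under 1, and the colours nearly coincide for most genes.

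Within families the levels were less even. Among kinesin-1 heavy chains Kif5a stood at 428 TPM, Kif5c, a neuronal form, at 245 and Kif5b, the form made in most cells, at 224. Among the kinesin-2 genes Kif3a was at 99.5 TPM, Kif3c at 67.8 and Kif3b at 19.1, while Kif17, a homodimeric kinesin-2, was at 5.63. The dynein heavy chain Dync1h1, the ATP-hydrolysing subunit, was at 112 TPM, below the light intermediate chain Dync1li2 (193) and the intermediate chain Dync1i2 (127) and above Dync1i1 (92.1). All dynactin subunits lay between 62.3 TPM (Dctn4) and 210.1 (Dctn1, the large subunit p150Glued that binds dynein). The dynein-2 genes, which serve transport inside cilia, were at 16.2 (Dync2li1) and 7.04 TPM (Dync2h1). The 11 dividing-cell kinesins ran from 0.138 (Kif14) to 1.58 TPM (Kif22).

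Genes with many counts were repeatable between mice of one genotype. For the 32 genes with a mean of 1000 counts or more, the SD of normalised CPM within genotype was 1.91% to 10.7% of the mean, with a median of 4.23%. The steadiest was Klc1 (1.91%), followed by Kif3a at 2.02% and Kif1a at 2.35%. Kif13b, a kinesin-3, was the least steady of the 32.

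Each motor gene was tested for a difference between genotypes. Of 61 genes, all of which passed the filter on low counts, 1 was called, lower in ETAQ (edgeR quasi-likelihood test with Benjamini-Hochberg adjusted p under 0.05), and 60 were not called. Over all 17189 genes tested, 1.92% were called in either direction and 1.34% were called lower. At an unadjusted p under 0.05 there were 8 lower and 2 higher motor genes, 10 of 61, against 10.9% of all genes. The CPM ranges of the genotypes did not overlap for 2 genes, Kif5c and Klc1, against 2.01% of all genes. The share called is close to that over all genes. On simulated data, described below, the fit called 2.04% of genes changed 1.1-fold, so few calls do not show that small differences were absent.

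The signs of the small differences leaned to lower values in ETAQ. A fitted log2 fold change below 0 was found for 37 of 61 genes (60.7%) with a median of -0.02, against 48.1% of all genes tested and a median of 0.0043. Without the dividing-cell kinesins it was 36 of 50, with a median of -0.04. This tally moved with the scaling, and so did that of all genes. Under library totals alone 30 of 61 (49.2%) were lower, beside 36.0% of all genes. On log2(TPM + 0.1) it was 28 of 61 (45.9%), beside 34.0%. The motor share was above that of all genes under each scaling tried, and the lean itself was not tested. In normalised CPM the 61 genes summed to 12315 to 13340 in WT and 12154 to 12596 in ETAQ, which overlap, and in TPM to 5809 ± 310.4 and 5721 ± 147 (SD, n = 6 each). The effect had the same sign within mice 1 to 6 and within mice 7 to 12 for 43 genes, 28 of them lower in both. The matching shares of all genes were not computed, so these counts are not read as a result about motor genes.

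**Figure D2:**
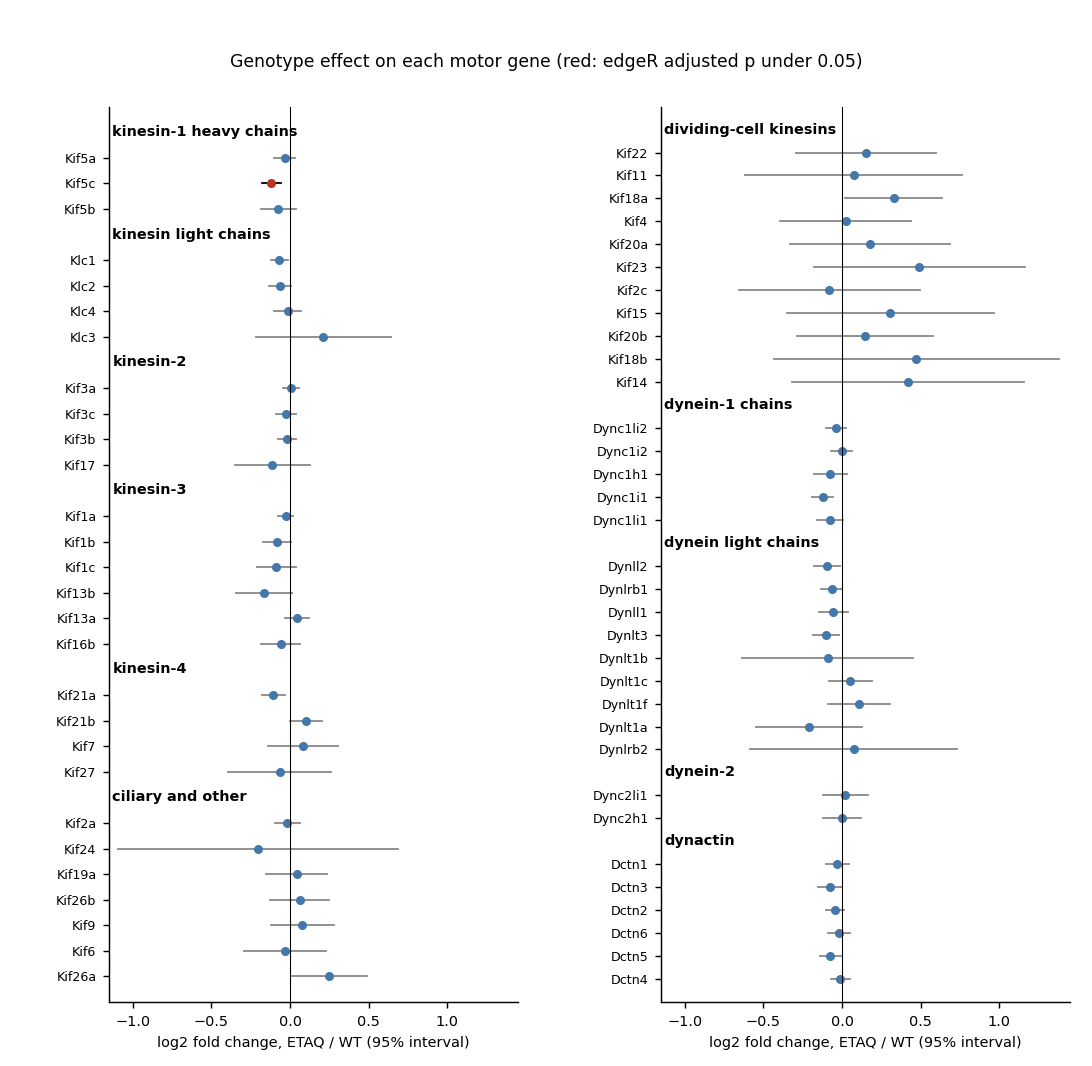
Log2 fold change (ETAQ over WT) of each motor gene, from edgeR with sex in the fit, with its 95% interval, grouped by family and ordered by level. Only Kif5c (red) passed the adjusted p of 0.05, intervals of the abundant transport motors are narrow and near 0, and those of the dividing-cell kinesins are wide.

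Kif5c (ENSMUSG00000026764, chr2:49619298-49774778, plus strand, GRCm38) was the member called. It encodes a neuronal heavy chain of kinesin-1, the motor that carries mitochondria, vesicles and slowly moving cytoskeletal cargo out along axons. The WT mice 2, 3, 4, 7, 10 and 12 held 1012, 1049.6, 956, 1000.4, 997 and 982 normalised CPM. The ETAQ mice 1, 5, 6, 8, 9 and 11 held 951, 919.5, 884, 936, 907 and 923. Every WT mouse was above every ETAQ mouse, though the lowest WT value (mouse 4) and the highest ETAQ value (mouse 1) nearly met. Means were 999 ± 31.4 in WT and 920.1 ± 23.1 in ETAQ (SD, n = 6 each), and the fitted log2 fold change was -0.12 ± 0.03 (SE, edgeR adjusted p = 0.0455). As a percentage, the fitted change was -7.94% (95% interval -11.7% to -3.98%).

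That call lay close to the threshold. Leaving out each mouse in turn left it called in 2 of 12 fits (without mouse 1 or mouse 4), with edgeR adjusted p from 0.0328 to 0.114 and log2 fold changes from -0.13 to -0.10. It was not called under any of 3 other library scalings (adjusted p 0.0515 to 0.198, edgeR), nor on log2(TPM + 0.1) with limma (log2 fold change -0.076, adjusted p = 0.695), and was called by DESeq2 (adjusted p = 0.000794), where 2.83% of all genes were called, and by limma-voom (adjusted p = 0.0428). The log2 fold change was -0.14 within mice 1 to 6 and -0.09 within mice 7 to 12, and -0.09 in females and -0.15 in males. Sex and set largely coincide, so the values by sex and by set are not separate readings.

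Markers of neurons and of astrocytes moved with genotype as well. The summed CPM of 6 motor neuron markers was 216 to 257 in WT and 127 to 162 in ETAQ, with 3 of the 6 (Chat, Prph and Chodl) called lower by edgeR and no defining marker at 0. The sum of 7 general neuronal markers was 5053 to 5305 in WT and 4659 to 4934 in ETAQ, again without overlap, with 1 of 7 (Stmn2) called lower. From a list of 5 genes used as sensory neuron markers, 3 were tested, with P2rx3 and Avil called higher and Calca lower. The sum over the 5 was 18.6 to 30.4 CPM in WT and 16.2 to 23.5 in ETAQ, with Scn10a at 0 in at least 1 library. The called genes moved in opposite directions, so neither the list nor its sum is read as a measure of sensory neurons. Of 5 astrocyte markers 1, Slc1a3, was called higher, with a sum of 2724 to 3440 in WT and 3289 to 3948 in ETAQ, overlapping. The part of these shifts in the Kif5c value was not tested.

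The other kinesin-1 heavy chains were not called. Kif5a (chr10:127225696-127263348), whose human gene is mutated in spastic paraplegia and in amyotrophic lateral sclerosis, was at 1481 to 1608 CPM (median 1577) in WT and 1439 to 1629.7 (median 1525) in ETAQ. These ranges overlapped almost fully, and the fitted change was -2.32% (95% interval -6.66% to 2.23%, edgeR adjusted p = 0.779). Kif5b was at 642 to 765 CPM (median 696) in WT and 589.7 to 726 (median 673) in ETAQ, overlapping, with a change of -5.10% (interval -12.1% to 2.51%, edgeR adjusted p = 0.682). All 3 heavy chains had a fitted value below 0 under the count scalings tried, whereas Kif5a turned above 0 on log2(TPM + 0.1). The difference of Kif5c from its paralogs in response to genotype was not tested.

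**Figure D3:**
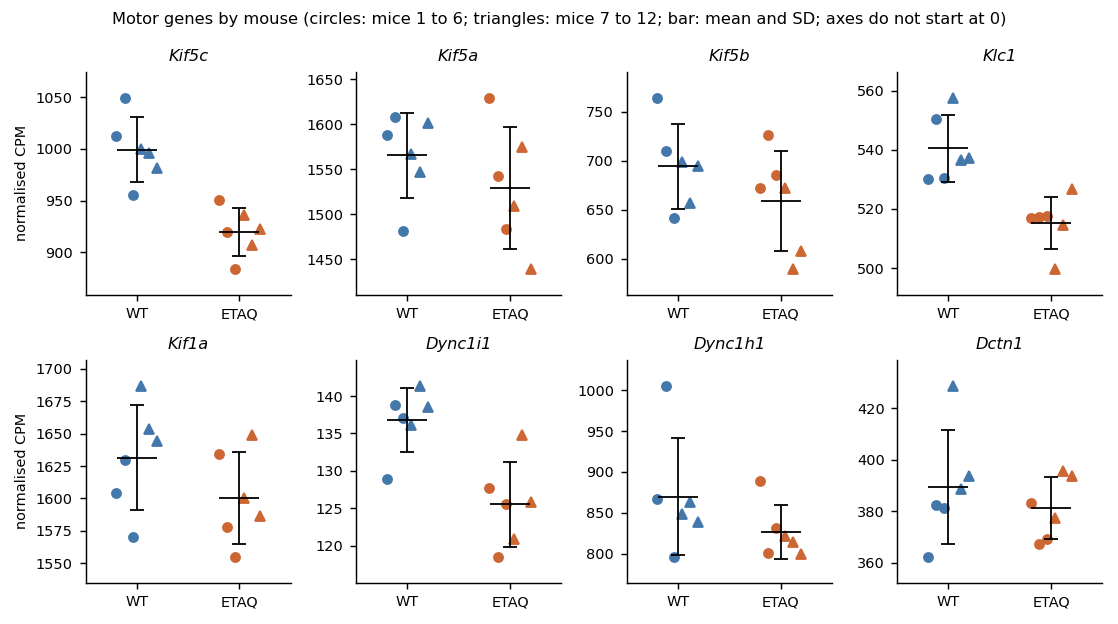
Normalised CPM of 8 transport genes in each mouse, with the mean and SD of 6 mice per genotype (circles mice 1 to 6, triangles mice 7 to 12, vertical axes do not start at 0). The Kif5c and Klc1 points of the genotypes do not overlap, and those of the other 6 genes do.

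Kinesin light chains join kinesin-1 heavy chains to many of their cargoes. Klc1 (chr12:111758849-111807844), the most abundant of them, was at 530.1 to 558 CPM (median 537) in WT and 499.6 to 527 (median 517) in ETAQ. The groups did not overlap. The log2 fold change was -0.07 ± 0.03 (SE), a change of -4.64% (95% interval -8.16% to -0.994%), with an edgeR adjusted p of 0.282, so it was not called, while DESeq2 gave an adjusted p of 0.0453. Klc2 was at 331 to 368 CPM in WT and 316 to 348 in ETAQ, overlapping, with an edgeR adjusted p of 0.504, and 10.6% of its exon bases overlap a gene on the other strand. Neither Klc3, at 1.24 TPM over all mice, nor Klc4, at 18.1, was called.

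The kinesin-3 family carries synaptic vesicle precursors, dense-core vesicles and mitochondria, and 0 of its 6 members were called by edgeR, DESeq2 or limma-voom, with 0 at an unadjusted p under 0.05. Kif1a (chr1:93015464-93101951) was at 1570.3 to 1687 CPM (median 1637) in WT and 1555 to 1649 (median 1593.5) in ETAQ. Its change was among the most tightly bounded, at -1.90% (95% interval -4.98% to 1.29%, edgeR adjusted p = 0.734). Kif1b, which carries mitochondria and synaptic vesicle precursors in its different splice forms, was at 1357 to 1652 CPM in WT and 1318 to 1469.8 in ETAQ, overlapping (edgeR adjusted p = 0.50). Kif13b had the lowest fitted value of the family, -10.9%, with an interval from -21.2% to 0.777%.

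In the kinesin-2 family, which serves axonal and ciliary transport, 0 of 4 members were called by the same 3 tools and 0 reached an unadjusted p under 0.05. Kif3a, the motor subunit shared by its heterotrimers, was at 143.5 to 153 CPM in WT and 146 to 152 in ETAQ. The ETAQ range lay inside the WT range, and the change was bounded between -2.93% and 4.04% (95% interval). Kif3c shares 40.7% of its exon bases with genes on the other strand, so its 269 ± 12.1 CPM in WT and 265 ± 11.5 in ETAQ may include reads of those genes.

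Of the kinesin-4 genes, 0 of 4 were called by the 3 tools and 1 had an unadjusted p under 0.05. Kif21a, a neuronal kinesin whose human gene is mutated in congenital fibrosis of the extraocular muscles, was at 328 to 379.8 CPM (median 362) in WT and 317 to 354 (median 332) in ETAQ. The groups overlapped, with low WT values in mouse 4 and high ETAQ values in mouse 8, and the log2 fold change was -0.11 ± 0.03 (edgeR adjusted p = 0.171). Its paralog Kif21b was at 84.4 to 105 CPM in WT and 95.2 to 109.8 in ETAQ, with a fitted value of 0.10 ± 0.05 on the log2 scale (edgeR adjusted p = 0.473). Whether these paralogs differed in their response was not tested.

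Cytoplasmic dynein-1 is built on a pair of Dync1h1 heavy chains with intermediate, light intermediate and light chains. Dync1i1 (chr6:5725639-6028039), the intermediate chain gene used mainly by neurons, was at 129 to 141 CPM (median 138) in WT and 118 to 135 (median 126) in ETAQ. The ranges overlapped through the WT mouse 2, at 129, and the ETAQ mouse 9, at 135. Its log2 fold change was -0.12 ± 0.03 (SE), a change of -8.25% (95% interval -12.5% to -3.81%), and the edgeR adjusted p was 0.0693. It was called by DESeq2 (adjusted p = 0.0115) and by edgeR with mouse-number set added to the model (adjusted p = 0.0445), a fit that called 2.71% of all genes. The gene lies on the same chromosome as Gars, whose position in this reference is chr6:55038007-55079500. Dctn1 (chr6:83165920-83200117, not called, edgeR adjusted p = 0.835) lies on that chromosome as well. Linked FVB or B6J alleles were not analysed here, so their part in either value was not tested. Dync1i2, the intermediate chain made in most cells, was at 165 CPM in both genotypes (change -0.151%, interval -4.58% to 4.48%).

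Dync1h1 (chr12:110601452-110666945) was at 796 to 1005 CPM (median 856) in WT and 799 to 889 (median 819) in ETAQ. The ranges overlapped, WT mouse 3 and ETAQ mouse 1 stood above the rest of their groups, and the change was -4.99% (95% interval -11.6% to 2.11%, edgeR adjusted p = 0.662). The light intermediate chains Dync1li1 and Dync1li2 were not called either. All 5 dynein-1 genes had fitted values below 0 under TMM, while Dync1i2 was above 0 under upper-quartile factors and library totals, and Dync1i2 and Dync1li2 on log2(TPM + 0.1).

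Dynein light chains bind the intermediate chains and, in part, other proteins. Of 9 genes 0 were called by edgeR, DESeq2 or limma-voom, with 2 lower at an unadjusted p under 0.05. Dynll2 was at 938 to 1050.2 CPM (median 1008) in WT and 862 to 1006 (median 933) in ETAQ, overlapping, with a log2 fold change of -0.09 ± 0.04 (edgeR adjusted p = 0.369). Dynlt3, of the Tctex family, was at 178 to 195 in WT and 163 to 188 in ETAQ, overlapping, with -0.10 ± 0.04 (edgeR adjusted p = 0.273). Dynll1 was at 99.5 ± 7.46 in WT and 95.6 ± 3.94 in ETAQ (SD, n = 6 each).

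Dynactin links dynein to cargo and makes it processive. Of its 6 members 0 were called by edgeR, DESeq2 or limma-voom, with Dctn3 and Dctn5 lower at an unadjusted p under 0.05. Fitted values were below 0 for all 6 under TMM, RLE or upper-quartile factors. They were below 0 for 4 of 6 under library totals or on log2(TPM + 0.1). Dctn1 (chr6:83165920-83200117), whose human gene is mutated in a motor neuronopathy and in Perry syndrome, was at 362 to 429 CPM (median 386) in WT and 367 to 396 (median 380.4) in ETAQ. The ETAQ values lay inside the WT range, with a change of -2.09% (95% interval -6.92% to 2.98%). Dctn2, the dynamitin subunit, was at 144 ± 4.56 in WT and 139 ± 3.84 in ETAQ (edgeR adjusted p = 0.616). Dctn5 was at 69.97 to 72.5 in WT and 62.8 to 72.5 in ETAQ, overlapping, with an edgeR adjusted p of 0.387.

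Neither dynein-2 chain and none of the 7 ciliary and other kinesins was called by edgeR, DESeq2 or limma-voom, and 1 of them, Kif26a, had an unadjusted p under 0.05. Dync2h1, the heavy chain of retrograde transport in cilia, was at 43.3 CPM in both genotypes, with a change bounded between -7.97% and 8.75%. Kif2a, which depolymerises microtubule ends and trims axon branches, was the most abundant of the 7 and was at 105 ± 6.34 CPM in WT and 104 ± 3.80 in ETAQ. Its exons overlap Dimt1 on the other strand over 19.2% of their bases. Kif26a, a kinesin without ATPase activity, had a fitted change of 19.0% (95% interval 0.729% to 40.5%, edgeR adjusted p = 0.43).

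The 57 partner genes found in the tables (adaptors, dynactin core and capping subunits outside the names above, dynein regulators and cargo links) were read from the same fits. None of 57 was called by edgeR, DESeq2 or limma-voom, where edgeR called 1.92% of all genes and DESeq2 2.83%. At an unadjusted p under 0.05 (edgeR) there were 4, against 10.9% of all genes. With so few genes, the lack of calls does not set the partner genes apart. Ndel1, a dynein regulator that works with Lis1, was at 84.3 to 92.5 CPM in WT and 80.1 to 87.4 in ETAQ (log2 fold change -0.09 ± 0.03, edgeR adjusted p = 0.245). Capzb, the capping protein subunit at the end of the dynactin filament, was at 135 to 156 in WT and 130 to 142 in ETAQ (-0.08 ± 0.03, adjusted p = 0.27). Both pairs of ranges overlapped.

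The effect of genotype was also compared between the sexes and between the sets of mice. Tests of the interaction called 0 motor genes in either case with edgeR, and 0% of all genes, and DESeq2 and limma-voom also called 0 motor genes in each. At an unadjusted p under 0.05 there were 2 motor genes for sex (Kif2a and Dynlt1b) and 3 for set (Kif4, Kif1c and Kif11), beside 4.96% and 3.97% of all genes. These shares are close to those over all genes.

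The larger differences among these genes followed mouse number instead. With genotype and sex in the model, 9 of 61 genes differed between mice 1 to 6 and mice 7 to 12 (edgeR adjusted p under 0.05), against 7.89% of all genes. Higher in mice 1 to 6 were 8, against 4.93% of all genes, and 7 of these were among the 11 dividing-cell kinesins (Kif18b, Kif11, Kif22, Kif23, Kif15, Kif20a and Kif14). DESeq2 called 5 of the 11 and limma-voom 7, and the shares of all genes called by these tools for set were not computed. The CPM of the sets did not overlap for 5 of the 11, while 5% of all genes were higher in mice 1 to 6 without overlap. All 11 had fitted values above 0, with a median log2 difference of 0.90 against 0.0045 for all genes. Kif20a overlaps Cdc23 on the other strand over 29.3% of its exon bases. The other called genes were Kif13b, higher, and Dync1li1, a light intermediate chain of dynein-1, lower at 80.5 CPM on average in mice 1 to 6 and 87.3 in mice 7 to 12.

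Kif18b, which shortens spindle microtubules in mitosis, was at 0.637 to 1.28 CPM (median 0.807) in mice 1 to 6 and 0.194 to 0.471 (median 0.244) in mice 7 to 12. The sets did not overlap, and the log2 difference was 1.78 ± 0.32 (SE, edgeR adjusted p = 0.00332). Kif11, the Eg5 motor that pushes spindle poles apart, was at 2.55 to 4.47 CPM (median 3.47) against 1.43 to 2.82 (median 1.60). These ranges overlapped at one mouse, and the log2 difference was 1.202 ± 0.22 (edgeR adjusted p = 0.00365). Kif22, a chromosome-arm motor, was at 2.199 CPM on average in mice 1 to 6 and 1.26 in mice 7 to 12 (log2 difference 0.86 ± 0.17, edgeR adjusted p = 0.00534). Kif23, a motor of the central spindle in cytokinesis, was at 1.38 and 0.607 (log2 difference 1.196 ± 0.26, edgeR adjusted p = 0.0102). The levels are low, and 3 counts, the limit that a count of 0 allows, correspond to 0.0724 to 0.127 CPM. Counting alone gives an SD of 10.98% of the mean for Kif11 and 23.8% for Kif18b, while the SD within genotype, which includes the difference between sets, was 40.7% and 63.3%.

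**Figure D4:**
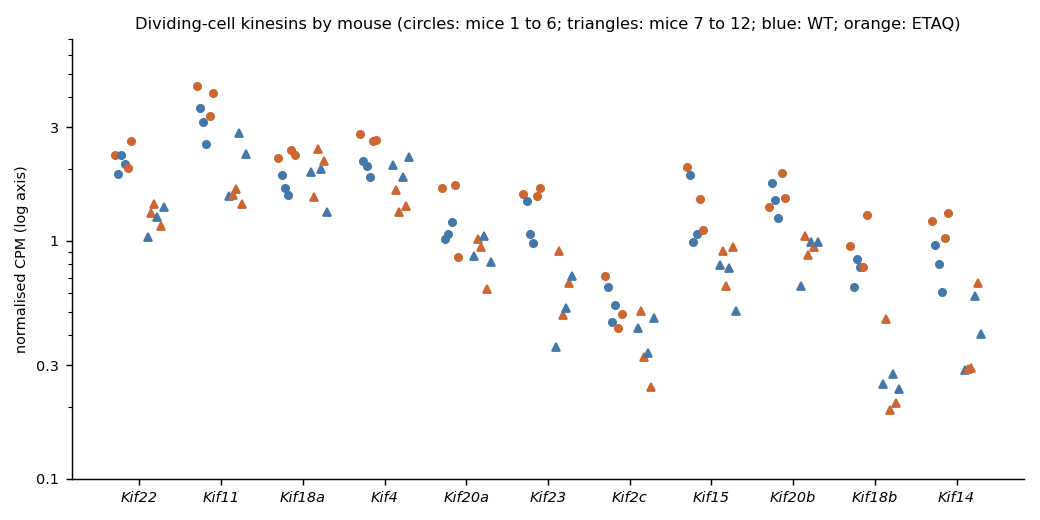
Normalised CPM (log axis) of the 11 dividing-cell kinesins in each mouse, with mice 1 to 6 as circles left of mice 7 to 12 as triangles, and genotype by colour. Kif18b, Kif22, Kif23, Kif15 and Kif20b separate the sets without overlap, while both colours are found at high and low values within each set.

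Markers of dividing cells moved in the same way. Their summed level was 22.7 to 46.6 CPM in mice 1 to 6 and 7.28 to 9.63 in mice 7 to 12, with 7 of 8 called higher and none at 0 in any library, and Mki67, the proliferation marker Ki-67, was at 10.6 to 25.8 against 2.30 to 2.86. The blood and marrow, muscle and Schwann cell markers given above were higher in the same mice (8 of 8, 4 of 4 and 4 of 4 called), with Elane, S100a8 and Ckm at 0 in at least 1 library. Their part in the kinesin values was not tested. Only mouse 1 and mouse 11, both ETAQ, separate sex from set, so within WT sex and set coincide fully. Without either of these mice 0 of 61 motor genes were called. Without any other single mouse 7 to 11 were called.

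Against genotype the dividing-cell kinesins were not called (0 of 11 by edgeR, DESeq2 and limma-voom, 1 at an unadjusted p under 0.05). The latter was Kif18a, which limits chromosome oscillation in mitosis, at 1.32 to 1.996 CPM (median 1.78) in WT and 1.52 to 2.43 (median 2.26) in ETAQ, overlapping. Its log2 fold change was 0.33 ± 0.14 (edgeR adjusted p = 0.415), with values of 0.47 within mice 1 to 6 and 0.18 within mice 7 to 12.

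Start regions of the dividing-cell kinesins were read because 7 of these 11 genes were called higher in mice 1 to 6. Windows from 250 bases before to 50 after a gene's start were given by RefSeq (GRCm38.p6) for 47 of 61 motor genes, 10 of them dividing-cell kinesins. The motif TTTGAA is the core of the cell cycle gene homology region, an element known from genes that peak in mitosis, and a CCAAT box often stands upstream of it. Both strands were searched. The letters TTTGAA were found in 9 of the 10 dividing-cell kinesins and in 4 of the 37 other motor genes (10.8%). The share was 20.2% of 27025 genes with a window of that length (17.9% of 32851 windows). Matches anywhere in the window were counted, and those of Kif14 (-228 bases from the start) and Kif2c (-103) lay far upstream. Whether any match works as a homology region was not tested. The CCAAT box was found in 6 of 10 and in 16 of the 37 other motor genes (43.2%), beside 41.1% of genes (37.4% of windows).

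The other motifs, searched in the same windows, gave fewer matches. The variant core TTCGAA was found in 0 of 10 dividing-cell kinesins, beside 1.80% of genes. The E2F motif TTTCGCGC was found in 0 of 10, beside 0.374%. Its relative TTTGGCGC was found in 2 of 10, beside 0.585%. Each motif was searched separately, so neighbouring matches may adjoin or overlap. The searches were made after the values of the sets were known, and a match is a description of these letters only.

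The stretches below run from 110 bases before to 10 bases after the start. The first 5 genes are shown because they were called higher in mice 1 to 6 and hold TTTGAA near their start. Capitals mark the TTTGAA core and the CCAAT box, on either strand. In Kif11 and Kif15 the motif begins 19 bases before the start, in Kif22 17 bases before it, and in Kif18b and Kif23 just after it. Kif5c is printed for contrast and holds neither motif in its window. The positions in GRCm38.p6 are, in the order shown, chr19:37376272-37376391 (plus strand), chr9:122950971-122951090 (plus), chr7:127042411-127042530 (minus), chr11:102925115-102925234 (minus), chr9:61946790-61946909 (minus) and chr2:49619176-49619295 (plus).
Kif11: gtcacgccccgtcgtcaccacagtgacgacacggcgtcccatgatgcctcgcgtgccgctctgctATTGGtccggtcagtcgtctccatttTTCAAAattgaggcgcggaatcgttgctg
Kif15: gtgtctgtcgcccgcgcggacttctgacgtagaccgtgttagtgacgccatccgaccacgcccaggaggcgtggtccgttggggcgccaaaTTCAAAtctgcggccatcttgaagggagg
Kif22: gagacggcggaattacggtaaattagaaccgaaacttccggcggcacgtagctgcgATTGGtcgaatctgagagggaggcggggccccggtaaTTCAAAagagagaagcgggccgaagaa
Kif18b: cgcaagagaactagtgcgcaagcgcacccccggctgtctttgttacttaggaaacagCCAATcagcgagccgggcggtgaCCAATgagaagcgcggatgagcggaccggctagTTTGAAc
Kif23: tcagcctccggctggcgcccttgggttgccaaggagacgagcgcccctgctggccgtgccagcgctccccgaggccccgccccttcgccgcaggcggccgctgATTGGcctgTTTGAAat
Kif5c: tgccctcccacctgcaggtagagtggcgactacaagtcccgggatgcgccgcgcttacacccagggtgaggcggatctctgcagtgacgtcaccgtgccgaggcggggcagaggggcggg

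Most members varied between mice by more than counting error alone, with an SD within genotype over 2 times that from counting in 38 of 61 genes. Among members with over 100 counts on average the spread was widest for Kif24. This gene, a kinesin that trims microtubules at the mother centriole, had an SD within genotype of 44.0% of its mean, whereas counting alone gives 4.85%. It was at 21.3, 6.30, 18.9, 17.2, 16.0 and 7.23 CPM in mice 1 to 6, and at 8.42, 7.28, 18.2, 16.5, 8.04 and 21.0 in mice 7 to 12. Mice 2, 6, 7, 8 and 11 were low and the other 7 were high, and both genotypes, sexes and sets were found on either side. The genotype effect was accordingly loose, with a 95% interval from -53.2% to 60.8%.

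**Figure D5:**
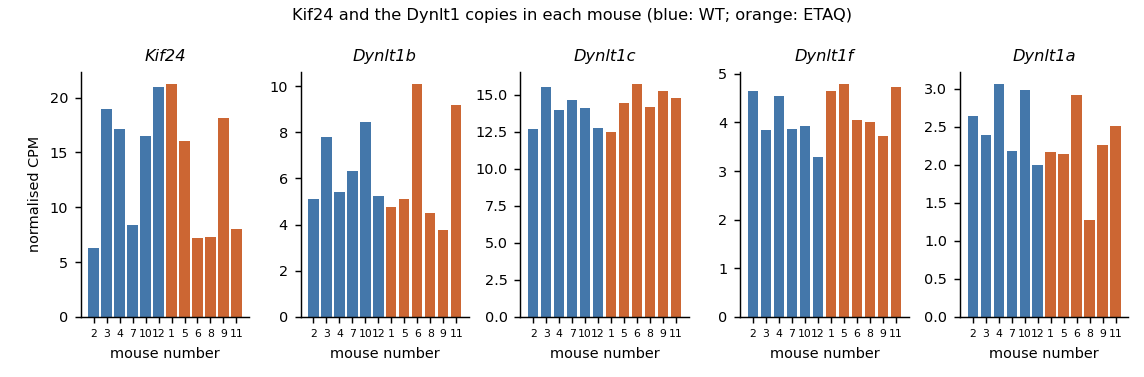
Normalised CPM of Kif24 and of the Dynlt1 copies in each mouse, WT in blue and ETAQ in orange, with mouse numbers on the horizontal axis. Kif24 falls to between 6.30 and 8.42 in 5 mice and stands between 16.0 and 21.3 in the other 7, and Dynlt1b is high in mice 3, 6, 10 and 11.

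The Dynlt1 genes, which encode the Tctex1 dynein light chain, are tandem copies on chromosome 17. Their coding sequences of 339 bases in GENCODE M21 are identical in Dynlt1a, Dynlt1c and Dynlt1f, and that of Dynlt1b differs at 1 base (99.7% identity). The first 60 coding bases of Dynlt1a and Dynlt1b are shown to make clear how little separates them, with the variable base in capitals.
Dynlt1a: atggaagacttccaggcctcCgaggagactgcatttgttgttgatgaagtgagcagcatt
Dynlt1b: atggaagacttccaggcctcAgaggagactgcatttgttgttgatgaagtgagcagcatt

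Between 62.4% and 84.8% of the 75-base sequences of each copy also occur in another gene, so the authors' counting had to divide reads among them and single-copy values are uncertain. Dynlt1b was at 5.09 to 8.44 CPM in WT and at 3.75 to 10.1 in ETAQ, overlapping. With the copies summed, an alternative chosen after seeing the data, the fitted genotype effect was 0.01 ± 0.08 on the log2 scale (SE, edgeR adjusted p = 0.982).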

How the data were processed

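Reads had been aligned and counted with Bowtie2 2.2.0 and RSEM 1.2.12, as the submitters' processing notes list them. For the build, annotation and strand setting: not given in the sources used here. Each deposited table holds, per the file headers, the authors' expected count per gene, which is not normalised and was not whole for 15.4% of values, and their TPM, corrected for length and total. The labels' protocols name polyA selection, 2 KAPA kits without assigning them to libraries, and 75-base paired reads.

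Expected counts were rounded and fitted over the whole table in R 4.3.3 with edgeR 4.0.16 (filterByExpr on genotype by sex, TMM, robust quasi-likelihood test, sex as a covariate, two-sided, Benjamini-Hochberg over all 17189 genes tested, threshold 0.05). DESeq2 1.42.0 and limma 3.58.1 were alternatives. Standard errors (SE) were derived from the F statistic. The 12 libraries were treated as separate animals, as their numbers imply. The fit was tested on simulated data. For genotype it called 46.9% of genes changed 1.2-fold and 2.04% of those changed 1.1-fold (2.78% of calls false). For mouse-number set it called 62% of genes changed 1.5-fold. The changed genes were drawn at random over all levels, so these shares are not those of the abundant motor genes. The simulated counts took their spread from a fit with a set term and held no set or sex differences beyond the one tested. The genotype fit of the real data has no set term, so the genotype shares need not hold for genes that differ between sets.

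Positions and overlaps come from GENCODE M21 (GRCm38), matched by ID for all 61 members. The members and lists were chosen with earlier results of these data known. Named genes are Gars, called members, the 8 of smallest genotype p, the most abundant of each family, a list of disease-linked or bulk carriers, the leading set and partner genes, and members with shared sequence. Kif26a, Kif21b, Kif13b, Kif24 and the genes of the level and variability paragraphs were added after their values were seen. Limits on a count of 0 cover counting error only. Effective lengths, FPKM and isoform shares were not used here except lengths for a check of the TPM order. Slc18a3, Cfap126, Bicdl1, Bicdl2, Borcs5 and Borcs8 matched no row and were not analysed here.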

Additional observations from a re-analysis of the deposited data

Results flagged for a closer look

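In 4 of 122 groups of 6 mice (61 genes in each genotype), 1 mouse lay farther from the others than Dixon's test at the 95% level allows, and chance alone marks about 1 group in 20. Kif18a was lowest in the ETAQ mouse 8, at 1.52 normalised CPM, where the other ETAQ mice held 2.16 to 2.43. Dync1h1 was highest in the WT mouse 3, at 1005, where the other WT mice held 796 to 867. Dync1h1 was also highest in the ETAQ mouse 1, at 889, where the other ETAQ mice held 799 to 832. Kif16b, a kinesin-3 of early endosomes, was highest in the ETAQ mouse 8, at 26.8, where the others held 21.5 to 23.3.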

How the results depend on the processing

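No paired analysis was possible because the mouse numbers run from 1 to 12 and no number is shared between the genotypes. The number of motor genes called for genotype (1, Kif5c) was 0 with RLE factors, upper-quartile factors, library totals, no filter or a TPM filter. It was also 0 with limma on log2(TPM + 0.1) and for the genotype effect within either set of mice or either sex. It was 2 with a set term (Kif5c, Dync1i1) and 3 with DESeq2 (Kif5c, Dync1i1, Klc1). It ranged from 0 to 1 with 1 mouse left out. For mouse-number set (9 called) that range was 0 to 11. The effects within a set or a sex came from fits to all 12 mice, though each compares only 3 mice per genotype. The cause of these differences in calls was not tested.

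Of 794 alternatives for 32 single-gene effects, 722 kept direction and side of the threshold and 29 reversed, all for genotype effects that were not called. On log2(TPM + 0.1) the reversed log2 values were 0.033 (Kif2a), 0.023 (Dctn1), 0.00099 (Dync1li2), 0.0082 (Kif5a), 0.014 (Kif1a) and 0.039 (Dync1i2). Under library totals they were 0.0066 (Kif2a) and 0.022 (Dync1i2), and under upper-quartile factors 0.007 (Dync1i2). In mice 1 to 6 they were 0.041 (Kif2a), -0.021 (Dync2li1) and 0.014 (Dync1i2), and in mice 7 to 12 -0.023 (Kif3a). In males they were 0.07 (Kif2a), -0.12 (Kif22), 0.0059 (Dctn1) and 0.019 (Dync1i2), and in females -0.015 (Kif3a). With 1 mouse left out, Kif2a ranged from -0.045 to 0.00039, Kif22 from -0.0069 to 0.31, Dync2li1 from -0.018 to 0.074, Kif3a from -0.0012 to 0.015 and Dync1i2 from -0.019 to 0.012.

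Differences of about 1.1-fold, the size found for Kif5c, were near the limit of what the adjusted test called with 6 mice per genotype. For the dividing-cell kinesins other than Kif18a the SE of the genotype effect was smaller with a set term in the fit. It was 0.165 against 0.315 for Kif11 and 0.244 against 0.421 for Kif18b, while for Kif18a it was 0.144 in both fits.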
